A study of Homo sapiens with 4 samples.

Results

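The EHD ATPases and the caveolar coat form a set of 10 genes: EHD1, EHD2, EHD3 and EHD4, the caveolins CAV1 and CAV2, the cavins CAVIN1, CAVIN2 and CAVIN3, and the membrane-bending protein PACSIN2. They were found by gene symbol in the platform annotation, which names 1 probe set each for 7 of them, out of 14884 genes named in all. CAV1, CAV2 and CAVIN3 have no probe set named for them in that annotation and were not analysed here. The set was selected on the difference of EHD2 between BRPF3 siRNA and control siRNA on these same arrays, with its paralogs and caveolar partners added by family, so the values of the 7 measured genes are given as a description and no p-value is attached to them.

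RNA came from U2OS, a human osteosarcoma line, and was hybridised to Affymetrix whole-transcript arrays. In 2 samples the cells had been transfected with siRNA against BRPF3, a scaffold of histone acetyltransferase complexes, and in 2 with a scrambled control siRNA, each at 50 nM with Lipofectamine RNAiMAX and taken after 48 hours. All 4 samples therefore share the transfection, and the siRNA sequences are not given in the labels. BRPF3 has no probe set named for it, so its depletion was not checked here, and loss of BRPF3 cannot be told apart from other actions of the siRNA.

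Caveolae are flask-shaped pits of the plasma membrane, abundant in endothelial, fat, muscle and fibroblast cells, where they buffer membrane tension and take part in lipid uptake and signalling. Caveolins insert into the inner leaflet, cavins assemble on them as an outer coat, and PACSIN2 bends the membrane with its F-BAR domain. EHD proteins are dynamin-related ATPases that oligomerise on membranes. EHD2 forms a ring at the caveolar neck and holds the pit at the surface, while EHD1, EHD3 and EHD4 act mainly on endosomes and on recycling back to the plasma membrane.

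The EHD2 transcript was higher after BRPF3 siRNA by 1.30 ± 0.10 on the log2 scale (n = 2 arrays per group, SE from limma's moderated fit), a 2.46-fold difference, whereas the differences of the other 6 measured genes lay between -0.21 and 0.21. The size of the EHD2 difference exceeded that of 99.8% of the 10696 genes tested, and it was the tenth largest in the upward direction. Its paralogs EHD1 and EHD4, and CAVIN1, which is required for caveolae to form, differed by less than 0.1. At the threshold used for all genes, a Benjamini-Hochberg adjusted p under 0.05 in limma, 1 of the 7 genes was called, in a comparison where 15.8% of all tested genes were called (6.32% higher and 9.44% lower after BRPF3 siRNA). Because EHD2 was chosen for this difference, nothing is read from that count.

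The starts of EHD2 and of 2 of its paralogs are shown because the paralogs belong to 1 family but did not share the EHD2 difference. The windows hold the 250 bases before the annotated start, 5′ to 3′ on the gene's strand, from RefSeq on GRCh38.p14: EHD2 at chr19:47713172-47713421 (plus strand), EHD3 at chr2:31233902-31234151 (plus strand) and EHD4 at chr15:41972558-41972807 (minus strand). Capitals mark the GC box, GGGCGG or its reverse complement CCGCCC.
EHD2: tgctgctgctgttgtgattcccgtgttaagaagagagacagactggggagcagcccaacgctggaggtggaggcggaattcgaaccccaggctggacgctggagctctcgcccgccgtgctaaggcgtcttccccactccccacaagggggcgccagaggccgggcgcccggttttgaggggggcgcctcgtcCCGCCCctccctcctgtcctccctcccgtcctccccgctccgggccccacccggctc
EHD3: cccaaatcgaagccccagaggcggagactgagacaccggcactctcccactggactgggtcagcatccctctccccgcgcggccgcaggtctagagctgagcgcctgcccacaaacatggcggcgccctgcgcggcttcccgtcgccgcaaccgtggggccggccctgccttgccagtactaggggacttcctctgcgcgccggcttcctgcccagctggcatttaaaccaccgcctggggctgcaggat
EHD4: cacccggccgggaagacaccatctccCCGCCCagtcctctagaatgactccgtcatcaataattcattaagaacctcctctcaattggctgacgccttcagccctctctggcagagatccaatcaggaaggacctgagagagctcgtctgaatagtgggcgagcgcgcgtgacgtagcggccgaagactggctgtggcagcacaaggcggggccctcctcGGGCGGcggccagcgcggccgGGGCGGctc
The EHD2 window holds 1 GC box, the EHD4 window 3 and the EHD3 window 0, and 42.6% of the 35116 promoter windows of the table hold at least 1. All 3 windows are rich in CpG, with 20 in EHD2, 21 in EHD3 and 21 in EHD4 against a median of 11 over all windows, and G and C make up 69.6%, 68.4% and 63.2% of their bases. None of the 3 contains TATAAA on either strand, a motif found in 10.7% of windows. Of the 2 EHD1 starts in the table, the second has 71.6% G and C, 27 CpG, 5 GC boxes and 1 TATAAA match, and the first has 51.2% G and C, 2 CpG and neither motif. These letter matches describe the windows and say nothing of which factors bind there, and promoter activity was not measured.

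The log2 RMA value of EHD2 was 9.93 and 10.07 on the BRPF3 siRNA arrays, against 8.77 and 8.63 on the control siRNA arrays. Both arrays of a group lay close together, with gaps of 0.140 in each group, and the groups were far apart: over the 4 pairings of a BRPF3 siRNA with a control siRNA array the difference ran from 1.16 to 1.44. The group means were 10.00 ± 0.10 after BRPF3 siRNA and 8.70 ± 0.10 after control siRNA (SD, n = 2 each). These are bulk RNA levels, in which a change in the share of cells carrying the transcript and a change per cell cannot be told apart. The arrays were normalized to one another, so every difference here is relative to the bulk of the transcripts, whose median difference was -0.03.

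EHD1, which drives recycling from endosomes and the early steps of cilium assembly, read 5.92 and 5.98 after BRPF3 siRNA, against 6.01 and 5.94 after control siRNA. The groups overlapped, and the difference of -0.02 had a 95% interval from -0.22 to 0.17. EHD4, which acts on early endosomes, read 9.29 and 9.37 after BRPF3 siRNA, against 9.22 and 9.30 after control siRNA. These arrays overlapped as well, with a difference of 0.07 and an interval from -0.14 to 0.27.

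EHD3, the closest relative of EHD1 and likewise an endosomal recycling protein, read 8.50 and 8.40 after BRPF3 siRNA, against 8.26 and 8.21 after control siRNA. Both BRPF3 siRNA arrays lay above both control arrays, by 0.13 to 0.29 over the 4 pairings. The difference was 0.21 ± 0.08 with an interval from 0.01 to 0.42, a 1.16-fold difference that was not called over all genes. In size it exceeded the difference of 59.7% of tested genes, so EHD3 stood near the middle of the distribution in which EHD2 stood at its end.

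The EHD2 difference exceeded the mean of those of EHD1, EHD3 and EHD4 by 1.21 on the log2 scale. With any 1 of the 4 arrays left out this excess ran from 1.15 to 1.28, and it was 1.25 after quantile normalization and 1.24 after cyclic loess normalization. The comparison is one of differences: levels of separate probe sets depend on their probes and were not set against each other.

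**Figure D1:**
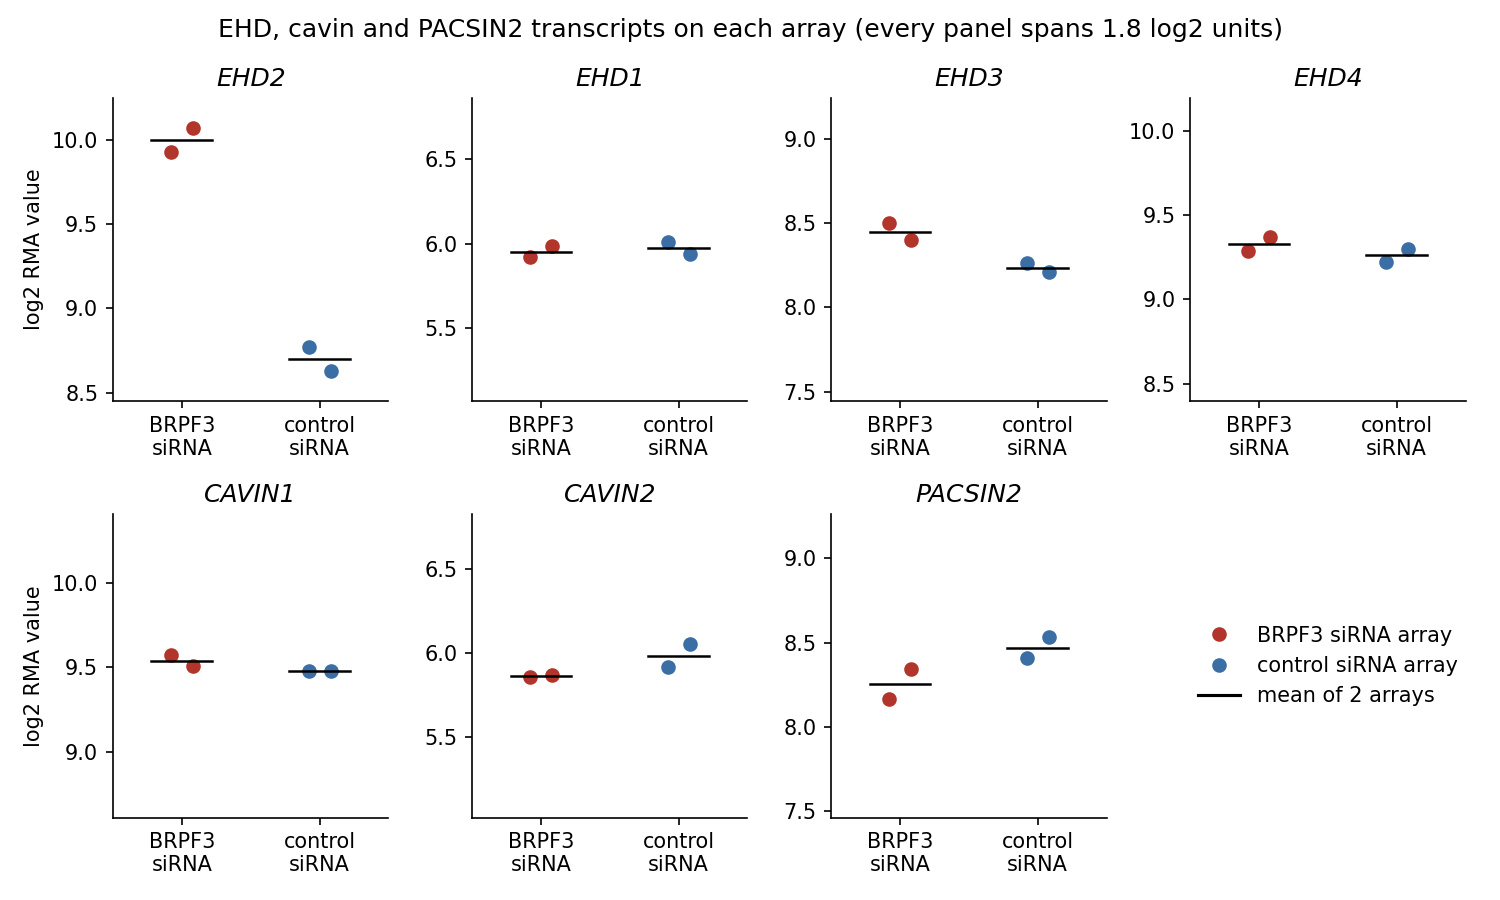
Log2 RMA values (y axis) of the 7 measured genes on each array, with BRPF3 siRNA (red) left of control siRNA (blue), 1 point per array and a line at the mean of 2 arrays. All panels span the same log2 range. For EHD2 both BRPF3 siRNA arrays (9.93 and 10.07) lie well above both control arrays (8.77 and 8.63), and in the other 6 panels the group means lie within 0.22 of each other.

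Among the coat proteins, CAVIN1 read 9.57 and 9.51 after BRPF3 siRNA, against 9.48 and 9.48 after control siRNA. Both BRPF3 siRNA arrays were above the control arrays, yet by 0.03 to 0.09, and the difference was 0.06 with an interval from -0.13 to 0.25. Of the tested genes, 19.7% had a smaller difference.

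CAVIN2, which helps shape caveolar membranes and is needed for endothelial caveolae in some mouse tissues, read 5.86 and 5.87 after BRPF3 siRNA, against 5.91 and 6.05 after control siRNA. The BRPF3 siRNA arrays were the lower ones, with a difference of -0.12 ± 0.09 and an interval from -0.34 to 0.09. The gap between the control arrays, 0.140, was larger than this difference.

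PACSIN2, also called syndapin 2, read 8.17 and 8.34 after BRPF3 siRNA, against 8.41 and 8.53 after control siRNA. Both BRPF3 siRNA arrays were below both control arrays, by 0.07 to 0.36. The difference of -0.21 ± 0.10 had an interval from -0.46 to 0.03 and was not called, and its size varied from -0.30 without BRPF3 siRNA replicate 2 to -0.13 without BRPF3 siRNA replicate 1.

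The arrays of the groups did not overlap for 5 of the 7 genes, 3 higher (EHD2, EHD3 and CAVIN1) and 2 lower (CAVIN2 and PACSIN2) after BRPF3 siRNA. Over all tested genes 63.2% did not overlap, 27.3% higher and 35.9% lower. With 2 arrays in a group such separation is common and does not set these genes apart. The median difference of the 7 genes was 0.06, beside -0.03 for all tested genes.

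**Figure D2:**
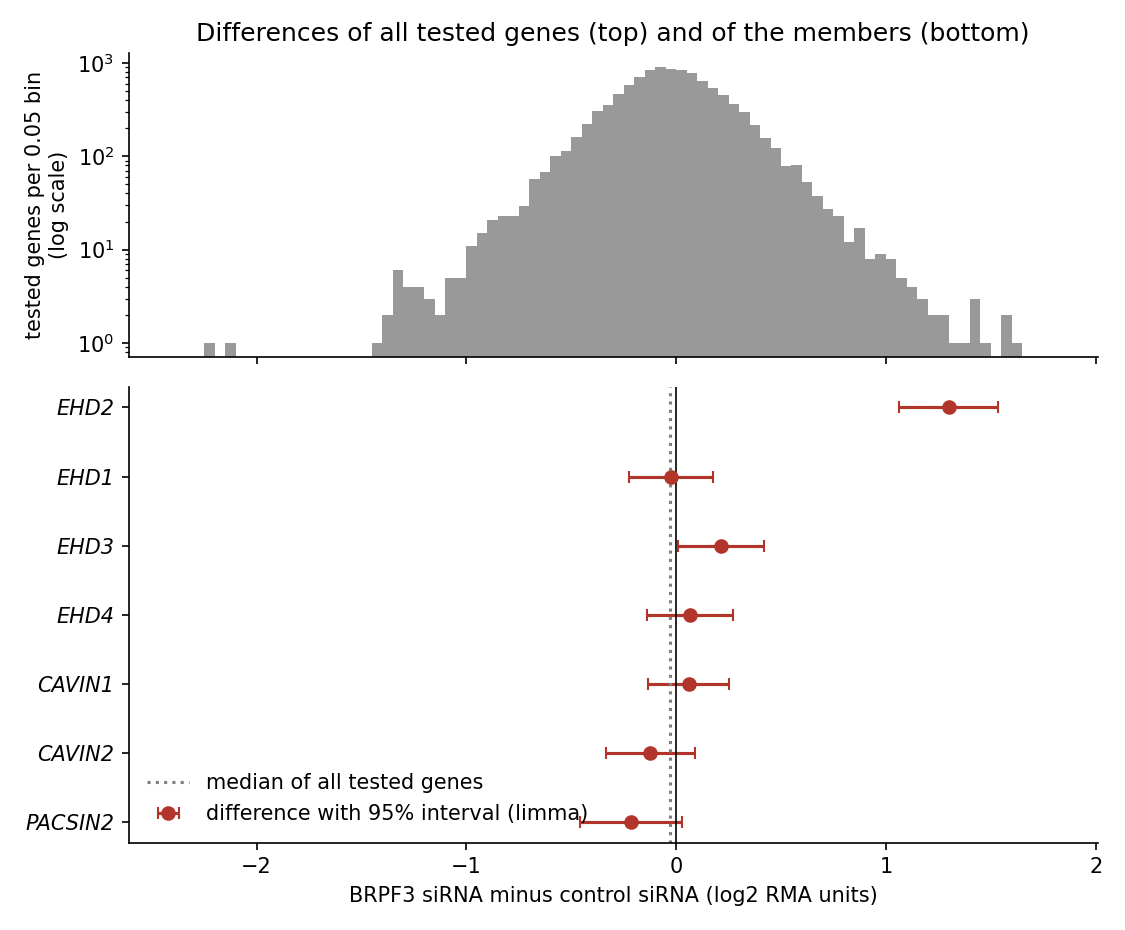
Top, histogram of the difference between BRPF3 siRNA and control siRNA (x axis, log2 RMA units) for the 10696 tested genes, with the number of genes on a log axis. Bottom, the same difference for each of the 7 measured genes, with bars for the 95% interval from limma's moderated SE and a dotted line at the median of all tested genes, -0.03. EHD2 at 1.30 lies in the sparse right tail, and the other 6 genes lie between -0.21 and 0.21, in the body of the histogram.

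The size of the EHD2 difference was 1.38 after quantile normalization and 1.37 after cyclic loess normalization, and it ran from 1.23 to 1.37 with 1 array left out. EHD3 stayed between 0.16 and 0.27 over the same settings. EHD1 lay on either side of 0, from -0.06 to 0.01, so no direction is given for it. CAVIN1 ran from 0.03 to 0.14 and EHD4 from 0.03 to 0.14, with the upper values from the other normalizations. CAVIN2 ran from -0.19 to -0.05.

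**Figure D3:**
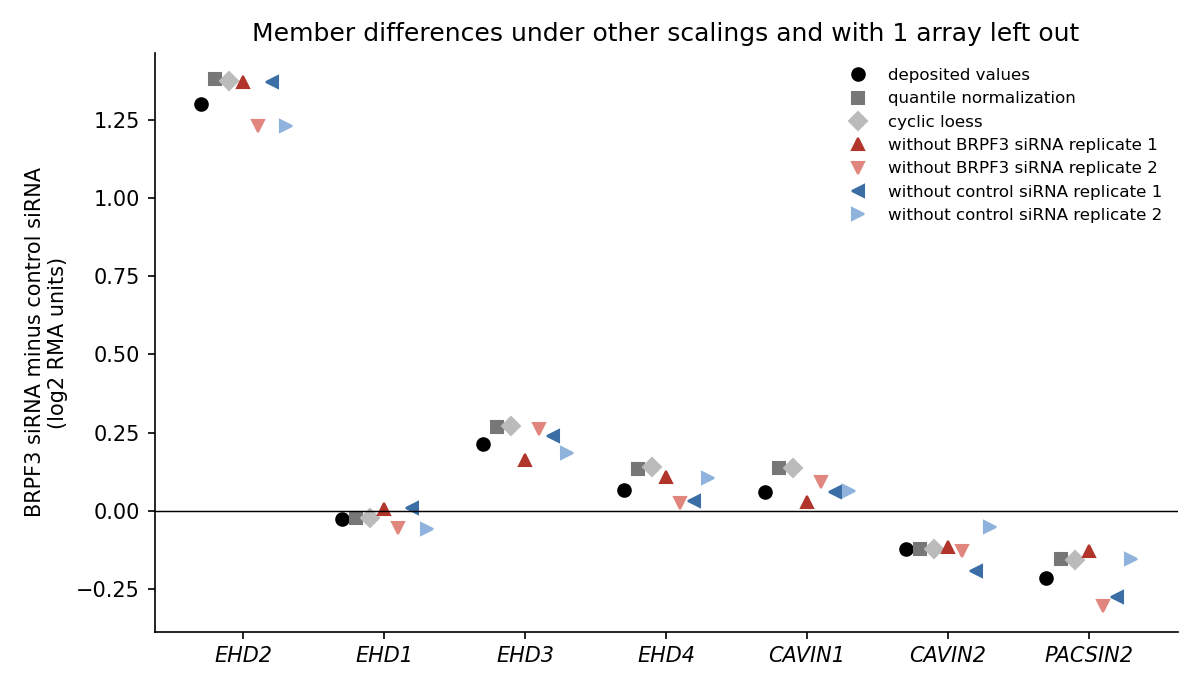
Difference between BRPF3 siRNA and control siRNA (y axis, log2 RMA units) for each measured gene on the deposited values, after quantile or cyclic loess normalization, and with each array left out in turn, 1 symbol per setting. EHD2 stays between 1.23 and 1.38, whereas the other genes stay between -0.30 and 0.27.

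Genes that work with EHD proteins, with caveolae and with other endocytic routes were then examined in 6 lists. The lists held 151 genes, of which 103 have a named probe set and 96 were tested. Of 96 tested list genes 6 rose and 10 fell (adjusted p under 0.05 in limma, over all 10696 genes), which is 16.7%, close to the 15.8% of all tested genes. The closeness depends on the cutoff: at an adjusted p under 0.1 in limma 33 of the 96 were called, beside 2877 of the 10696. The changes of the called list genes were spread over both directions. They were smaller than that of EHD2, which was chosen for its difference, so nothing is read from that. Of all called genes 59.9% were lower after BRPF3 siRNA on the deposited values, and 48.4% after quantile and 49.0% after cyclic loess normalization. No gene in the whole table was called without control siRNA replicate 1 or without control siRNA replicate 2 (0 in limma in both cases, with 2446 and 2477 genes at an unadjusted p under 0.05), so each call below, and that of EHD2, ends there.

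Among 16 tested partners of EHD proteins and genes of endosomal recycling, 2 rose and 1 fell, with a list median of 0.03. The list held 26 genes, but its RAB GTPases, such as RAB11A and RAB8A, have no probe set named for them and were not measured. MICALL1, an adaptor of recycling endosomes that binds EHD1 and recruits it to tubular membranes, read 8.54 and 8.61 after BRPF3 siRNA, against 8.13 and 8.03 after control siRNA. It rose 1.41-fold (0.50 ± 0.08, adjusted p = 0.0214, limma), and the groups did not overlap. Its relative MICALL2, an effector of RAB13 at junctions, rose by 0.45 ± 0.08 (adjusted p = 0.0257, limma).

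RAB11FIP2, a RAB11 effector whose NPF motifs bind the EH domain of EHD proteins, read 8.58 and 8.57 after BRPF3 siRNA, against 9.18 and 9.19 after control siRNA. It fell by 0.61 ± 0.08 on the log2 scale (adjusted p = 0.0129, limma), with gaps within each group far smaller than the gap between the groups. MICALL1 and MICALL2 lost their calls without either BRPF3 siRNA array (adjusted p from 0.0512 to 0.0677 in limma). EHBP1, which links EHD proteins to actin, differed by -0.02 ± 0.08 (adjusted p = 0.897, limma), and its relative EHBP1L1 by -0.37 ± 0.10 (adjusted p = 0.0634, limma).

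Among 15 tested accessory proteins of caveolae and lipid rafts, 2 rose and 2 fell, with a list median of 0.04. DNM1, a dynamin known mainly from synaptic vesicle endocytosis, read 9.74 and 9.63 after BRPF3 siRNA, against 9.07 and 9.11 after control siRNA, and rose 1.51-fold (0.60 ± 0.08, adjusted p = 0.0153, limma). The other dynamins did not pass: DNM2, the ubiquitous form, differed by -0.03 ± 0.08 (adjusted p = 0.801, limma) and DNM3 by 0.04 ± 0.09 (adjusted p = 0.81, limma).

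PACSIN3, the muscle-enriched relative of PACSIN2, read 8.99 and 8.81 after BRPF3 siRNA, against 8.50 and 8.51 after control siRNA. It rose 1.31-fold (0.39 ± 0.09, adjusted p = 0.0442, limma), opposite in sign to the difference of PACSIN2, and the contrast between these paralogs was not tested. The call of PACSIN3 ended without BRPF3 siRNA replicate 1, where the difference was 0.30 (adjusted p = 0.111, limma), and without replicate 2 (adjusted p = 0.0509, limma). PACSIN1, the neuronal relative, differed by -0.07 ± 0.10 (adjusted p = 0.664, limma).

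FLOT1, a flotillin of lipid rafts that forms domains separate from caveolae, read 10.03 and 9.96 after BRPF3 siRNA, against 10.46 and 10.41 after control siRNA. It fell by 0.44 ± 0.08 (adjusted p = 0.0249, limma), and its other 3 probe sets differed by -0.37, -0.36 and -0.30. Its partner FLOT2 differed by 0.19 ± 0.08 (adjusted p = 0.153, limma). STOML2, a mitochondrial protein of the stomatin family that was listed as a relative of STOM, fell by 0.30 ± 0.08 (adjusted p = 0.0492, limma). After quantile normalization STOML2 differed by -0.20 and was not called (adjusted p = 0.118, limma). FLOT1 and STOML2 also lost their calls without either BRPF3 siRNA array.

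The muscle forms of the coat, CAV3 and CAVIN4, lay near the intensity bound of 4.59 used as a filter. CAV3 read 4.51 and 4.66 after BRPF3 siRNA, against 4.89 and 4.63 after control siRNA, and CAVIN4 read 4.82 and 4.94 after BRPF3 siRNA, against 4.58 and 4.91 after control siRNA. The groups overlapped for both genes.

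Of 12 tested ferlins, annexins and other genes of membrane repair 0 rose and 1 fell, with a list median of -0.12. The list held 18 genes, but DYSF and the calpains have no probe set named for them and were not measured. S100A10, the partner of annexin A2, fell by 0.40 ± 0.09 (adjusted p = 0.0382, limma) and lost its call without either BRPF3 siRNA array. MYOF, a ferlin that binds EHD2 in mouse muscle cells, read 8.78 and 8.80 after BRPF3 siRNA, against 9.00 and 9.10 after control siRNA. Its difference of -0.26 ± 0.08 did not pass (adjusted p = 0.0848, limma).

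In the clathrin route, the other main route of endocytosis, 0 of 16 tested adaptor and accessory genes rose and 3 fell, with a list median of -0.09. The list held 29 genes, but its clathrin chains and AP2 subunits have no probe set named for them and were not measured. Of the 16 differences 7 lay above 0 and 9 below. An unadjusted p under 0.05 (limma) was reached by 10 of the 16, beside 34.6% of all tested genes. EPN2, an epsin that bends membrane and binds clathrin, read 7.34 and 7.29 after BRPF3 siRNA, against 8.05 and 8.11 after control siRNA. It fell by 0.76 ± 0.08 (adjusted p = 0.00963, limma), the largest change in the 6 lists on the deposited values. NECAP2, which binds the AP2 and AP1 adaptors, fell by 0.57 ± 0.08 (adjusted p = 0.016, limma). EPS15, a scaffold of coated pits with EH domains like that of the EHD proteins, fell by 0.35 ± 0.08 (adjusted p = 0.0366, limma) and was not called after quantile normalization (-0.28, adjusted p = 0.0599, limma) or without either BRPF3 siRNA array.

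Among 26 tested genes of BAR domain proteins, the class that includes PACSIN2, 2 rose and 3 fell, with a list median of 0.07. ARHGAP26, the RhoGAP GRAF1 of clathrin-independent carriers, rose by 0.57 ± 0.09 (adjusted p = 0.0181, limma), and SRGAP1, an inverse F-BAR RhoGAP that acts downstream of Slit and Robo, rose by 0.49 ± 0.08 (adjusted p = 0.0186, limma). The tyrosine kinase FER fell by 0.54 ± 0.09 (adjusted p = 0.0184, limma). The related F-BAR proteins TRIP10, known as CIP4, and FNBP1L, known as TOCA1, fell by 0.41 ± 0.08 (adjusted p = 0.0311, limma) and by 0.35 ± 0.08 (adjusted p = 0.0408, limma). FNBP1L was not called after quantile normalization (-0.27, adjusted p = 0.0762, limma). ARHGAP26 and SRGAP1 lost their calls without BRPF3 siRNA replicate 2, FER without BRPF3 siRNA replicate 1, and TRIP10 and FNBP1L without either.

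Of 11 tested genes of fatty acid uptake and lipid droplets, a process in which EHD2 and caveolae take part in fat cells, 0 rose and 0 fell in limma, and 5 had an unadjusted p under 0.05, beside 34.6% of all tested genes. Of the 24 listed genes 14 have a named probe set, and CD36, LPL and CIDEC lay below the intensity bound. FABP4 and the SLC27A transporters are among those not named, so uptake was largely not covered. The list median was 0.05. PLIN5, a coat protein of lipid droplets, differed by 0.25 ± 0.08 (adjusted p = 0.0777, limma). PNPLA2, the lipase ATGL, differed by -0.20 ± 0.08 (adjusted p = 0.13, limma) on its brighter probe set and by 0.40 on its other one, so that the mean of both was 0.10.

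**Figure D4:**
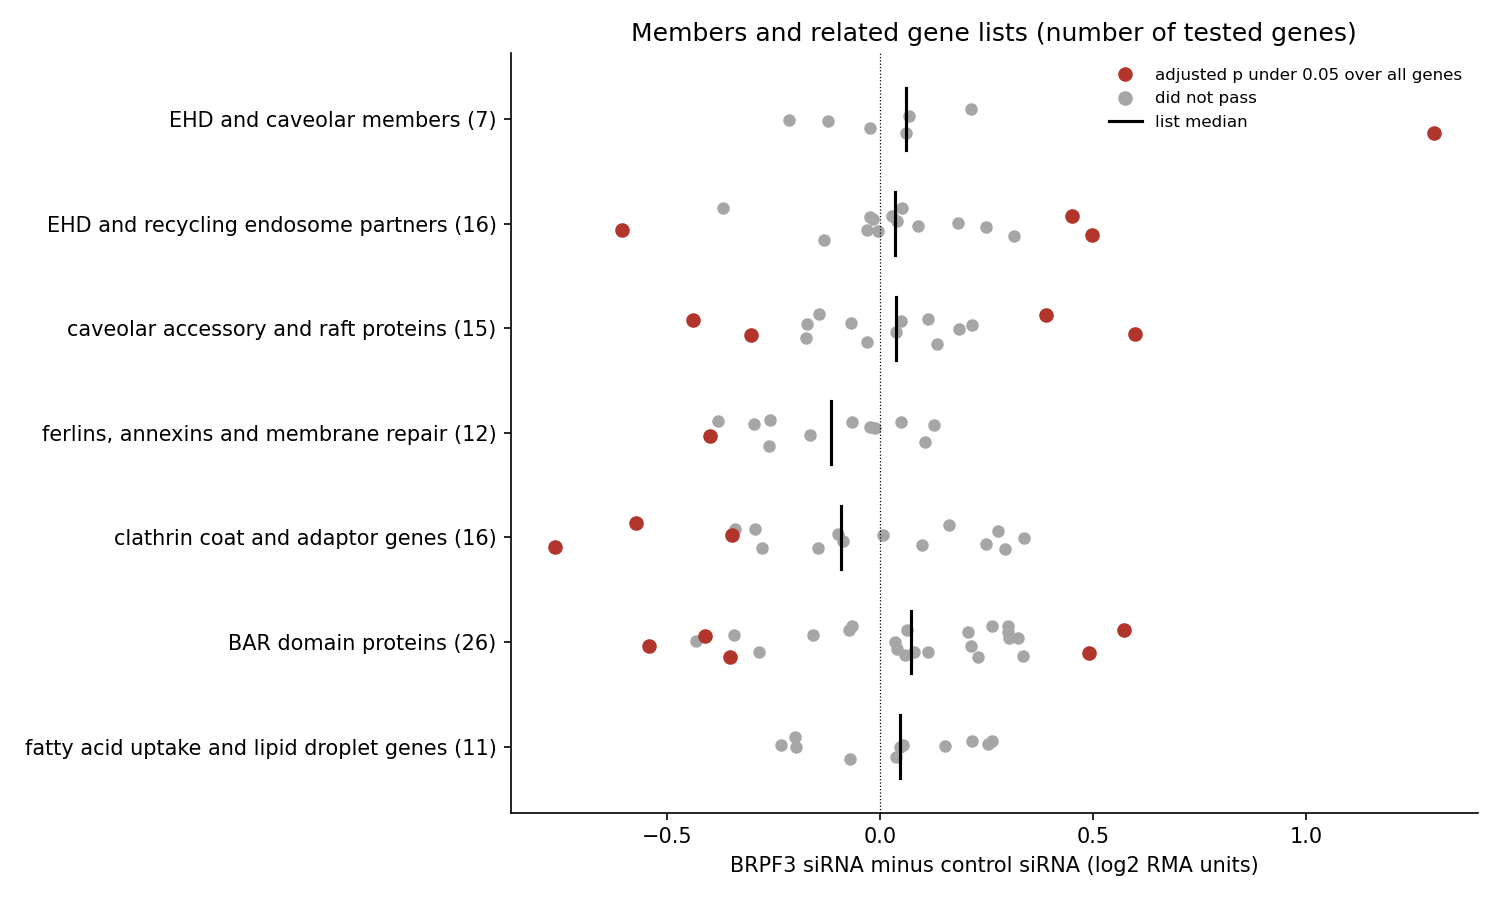
Difference between BRPF3 siRNA and control siRNA (x axis, log2 RMA units) for the 7 measured EHD and caveolar genes and for the tested genes of the 6 lists, 1 point per gene, red where the adjusted p over all genes was under 0.05, with a bar at each list's median. EHD2 at 1.30 lies to the right of every list gene, the largest rise in the lists being DNM1 at 0.60 and the largest fall EPN2 at -0.76. EHD2 was chosen for its difference, so its place beside the lists is a description only.

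Markers of cell types rich in caveolae were read beside these results. Of 8 named endothelial markers 6 lay below the intensity bound, PECAM1 and EMCN among them, and CLDN5 and ERG, the other 2, did not pass in limma (0 at an unadjusted p under 0.05). Their summed linear values were 249.6 and 248 after BRPF3 siRNA, against 269.9 and 252.7 after control siRNA. Of 5 named adipocyte markers LEP, CIDEC and LPL lay below the bound. PPARG rose by 0.98 ± 0.14 (adjusted p = 0.0165, limma). PLIN1, the other marker above the bound, differed by 0.05 ± 0.12 (adjusted p = 0.814, limma), and its groups overlapped. Summed values of the 5 were 148.8 and 165.5 after BRPF3 siRNA, against 112.8 and 114.4 after control siRNA. PPARG, the brightest of the 5, weighs most in these sums. Of 6 named muscle markers MYOCD, a coactivator of SRF, fell by 1.35 ± 0.17 (adjusted p = 0.0126, limma) and DES rose by 0.73 ± 0.10 (adjusted p = 0.0153, limma), though its second probe set differed by 0.01. TAGLN differed by 0.23 ± 0.08 (adjusted p = 0.0995, limma) and LMOD1 by 0.24 ± 0.12 (adjusted p = 0.199, limma). Of the 6 differences 4 lay above 0 and 2 below. The summed values of the 6 were 427.6 and 388.6 after BRPF3 siRNA, against 498.1 and 482.4 after control siRNA. MYOCD, the brightest of the 6 on the control siRNA arrays, weighs most in these sums.

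Of 3 named fibroblast markers DCN lay below the bound and LUM fell by 0.80 ± 0.08 (adjusted p = 0.00878, limma). THY1, the brightest of the 3, differed by 0.21 ± 0.08 and was not called (adjusted p = 0.118, limma). Both of its BRPF3 siRNA arrays lay above both control arrays. Summed values of the 3 were 184.5 and 191.8 after BRPF3 siRNA, against 193.7 and 193.8 after control siRNA. Of the osteoblast lineage markers named here RUNX2 and SPP1 lay above the bound, as SP7 did narrowly, whereas IBSP and DLX5 lay below it. None of the 3 above it was called in limma, and 1 had an unadjusted p under 0.05. The part of any of these in the EHD2 difference was not tested.

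The 5 tested genes whose values over the 4 arrays, each centred on its own mean, lay nearest to those of EHD2 were FST, TMC7, HOXB9, GPNMB and NIPAL4, at Euclidean distances from 0.118 to 0.165 on the log2 scale. TMC7, a member of the transmembrane channel-like family, read 8.27 and 8.26 after BRPF3 siRNA, against 7.12 and 6.98 after control siRNA. With 4 arrays in 2 groups, such nearness says mainly that the differences between the groups were of like size.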

How the data were processed

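Gene expression was measured on 1 Affymetrix whole-transcript array per sample, 2 arrays of U2OS cells given BRPF3 siRNA and 2 given control siRNA, grouped by sample title. The authors deposited log2 values for 53617 probe sets made with RMA, per the submitters' processing notes. RMA corrects background, normalizes between arrays and summarises probes, which removes shifts common to all transcripts and compresses differences of dim probe sets. No label or header used here gives its version or settings. Values between 0.80 and 13.57, with a median of 4.60 on every array, were used as deposited. Precision is limited by having 4 arrays. The samples are called biological replicates in the labels, without a statement on separate cultures, and p-values therefore reflect the spread among these 4 arrays, which may be technical.

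A platform annotation named 16098 probe sets, and 37519 are unnamed here. All 16098 gene identifiers matched RefSeq (GRCh38.p14), which changed 0 symbols. Each gene was represented by its brightest probe set, and a gene was tested if its mean reached 4.59, the median over the whole table. This gave 10696 genes, among them all 7 measured members. The test was limma's (version 3.58.1, R 4.3.3; lmFit, then eBayes, two-sided, group as factor, 2 residual and 3.81 prior degrees of freedom), with Benjamini-Hochberg adjustment over all 10696. An exact permutation test of 2 arrays against 2 cannot go below p = 0.333. The procedure was tested on simulated data. The members, the lists and the tests were chosen with earlier results of these data known. Named genes are all members, up to 3 called genes per direction in each list (the highest and lowest by moderated t where none was called) and the 5 genes nearest to EHD2. EHBP1, EHBP1L1, DNM2, DNM3, PACSIN1, FLOT2, MYOF, CAV3, CAVIN4 and the marker genes that were not called were named after their values were seen. 14 alternative settings were run, covering normalization, the replicate number as a block, eBayes options, filter, probe set summary, threshold and each array left out. The correlation over genes of the replicate 1 minus replicate 2 differences of both groups was 0.14, from 2 pairs. Promoter windows came from RefSeq, with entries for 8 of the 10 members.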

Additional observations from a re-analysis of the deposited data

How the results depend on the processing

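Of all genes 1686 were called, against 409 without a filter, 2645 with an intensity trend and 2877 at an adjusted p under 0.1, and the count ran from 0 to 791 with 1 array left out. The number of called list genes, 16, moved to 33 with an intensity trend, 33 with the filter at the 75th percentile, 33 at an adjusted p under 0.1 and 4 without a filter, and ran from 0 to 7 with 1 array left out. In such fits the single array left in a group takes its spread from the other group. The number of called members was 1 in 12 of the 14 settings, EHD2 in each, and ran from 0 to 1 with 1 array left out. The median difference of the members, 0.06, was 0.13 after quantile and 0.14 after cyclic loess normalization. PNPLA2 turned to 0.10 with the mean of its probe sets, and ERG ran from -0.14 to 0.078 with 1 array left out, being 0.078 without BRPF3 siRNA replicate 2 and 0.026 without control siRNA replicate 1. With the replicate block, 1604 genes and 15 list genes were called, 14 of them among the 16, with PACSIN3 (adjusted p = 0.052 in limma) and STOML2 (adjusted p = 0.0619 in limma) being lost and 1 BAR domain gene gained, and EHD2 kept its call. The labels do not state what a shared replicate number stands for. Without a filter 12 of the 20 called list and marker genes named lost their calls, all but RAB11FIP2, DNM1, EPN2, NECAP2, PPARG, DES, MYOCD and LUM. The causes were not tested. Dim probe sets such as those of EHD1 and CAVIN2 lie nearer to background, where RMA compresses differences.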
